A study of Mus musculus with 6 samples.

Results

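The miRNA precursor mir-210 (mmu-mir-210 in the deposited values) was followed in small RNA libraries of mouse retina with and without Dicer1 in rod photoreceptors. It was taken by name and is 1 of 855 precursors listed. Retinas came from mice aged 4 weeks on a mixed C57BL/6J - SJL background, and all of them carried floxed Dicer1 alleles (Dicerfl/fl). Control mice were littermates without the Cre transgene (iCre75-), and conditional knockout mice carried it (iCre75+, cKO below), so neither group has unmodified Dicer1 alleles. The iCre75 transgene is known as a Cre driven by the rod opsin promoter, which is not active in cones, inner retinal neurons, glia and vessels. Each genotype had 3 libraries, each from pooled RNA of 6 retinas, and values of single animals cannot be separated.

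The miRNA miR-210 is the best known oxygen-dependent miRNA. When oxygen is low, hypoxia-inducible factor (HIF) is no longer degraded and raises its transcription in many cell types. From work in human cells it is known to repress ISCU, a scaffold for iron-sulfur cluster assembly in mitochondria, and EFNA3, an ephrin that restrains vessel growth. Rods are known as heavy consumers of oxygen, and Dicer is the RNase that cuts precursors such as mir-210 to their mature form.

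The RefSeq sequence of mir-210 is shown because the deposited value counts reads over the whole precursor, so that both arms enter 1 value. In the GRCm38.p6 build the precursor lies at chr7:141221384-141221493 on the minus strand, and the sequences are given 5′ to 3′. In the GENCODE annotation of the same genome it overlaps no other gene and lies between Rassf7, which ends at position 141218658, and Phrf1, which starts at position 141228784. Capitals in the hairpin mark the mature arms, the 5p arm first, and capitals in each mature sequence mark the seed, bases 2 to 8.
mir-210 hairpin: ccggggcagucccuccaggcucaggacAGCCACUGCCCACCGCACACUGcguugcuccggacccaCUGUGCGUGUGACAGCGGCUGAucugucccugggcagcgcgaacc
miR-210-3p: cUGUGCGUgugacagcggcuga
miR-210-5p: aGCCACUGcccaccgcacacug

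The sequence stood alone among mouse miRNAs. No other of 1674 distinct mature sequences in the RefSeq table had the seed of either arm. Of 2237 other annotated miRNA hairpins, 0 held a stretch of 20 bases within 1 mismatch of mir-210, and the closest stretch differed at 4 bases. Unlike families such as miR-181 or miR-26, whose copies share reads, mir-210 was therefore a measurement of a single precursor. Its hairpin of 110 bases was 69.1% G and C, above 96.7% of the hairpins in the RefSeq table, whose median was 51.7%.

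Depth was ample for mir-210. The deposited values are RPKM (reads divided by the length of the precursor and by the total of the library), and they gave back library totals of 5480940 to 7478237 reads. At these totals mir-210 had 3991, 5394 and 5019 reads in control 1 to 3 and 4682, 6184 and 4877 reads in cKO 1 to 3. It took 0.0534% of control 1 (Wilson 95% interval 0.0517% to 0.0550%), the lowest share, and 0.0894% of cKO 2 (0.0872% to 0.0917%), the highest. No molecular identifiers were used, so PCR copies count as reads and the intervals describe counting error alone. They are narrow beside the spread between libraries, which was 19.0% of the mean in control and 15.2% in cKO (coefficient of variation of RPKM, n = 3 each).

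The labelled tissue and genotype could be checked only in part. The photoreceptor precursors mir-182, mir-183 and mir-96 were present in all libraries, and their summed level was 7568210 to 7894240 RPKM in control and 4037710 to 4911540 RPKM in cKO. That sum was almost all mir-182, at 7089880 to 7654310 RPKM in control and 3699200 to 4511810 RPKM in cKO, and the other two overlapped between genotypes. The level of mir-183 was 230841 to 466232 RPKM in control and 287485 to 389297 RPKM in cKO, and that of mir-96 was 9088 to 14568 RPKM and 7098 to 10441 RPKM. As deposited, mir-182 and mir-96 passed as lower in cKO (log2 fold change -0.86 and -0.49, limma adjusted p = 2.4e-04 and 0.048). The difference of mir-183 did not pass (log2 fold change -0.11, limma adjusted p = 0.68). After median-of-ratios scaling mir-182, mir-183 and mir-96 all passed as lower, at -1.59, -0.84 and -1.22. Dicer1 mRNA itself was not analysed here. Summed precursors of lens and epithelium (mir-184, mir-31, mir-205) ranged from 2499 to 54376 RPKM in control and from 25397 to 63458 RPKM in cKO. Those of red cells (mir-451a, mir-144, mir-486) ranged from 16553 to 19359 RPKM in control and from 26668 to 31080 RPKM in cKO. Nearly all of that sum was mir-486, and mir-144 overlapped between genotypes. Groups that did not overlap were frequent, at 73.5% of the 461 precursors tested below. With median-of-ratios scaling the log2 fold change of mir-486 was 1.6e-04. The part of lens, epithelium and red cells in the values of mir-210 was not tested.

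As deposited, mir-210 did not differ between genotypes beyond the spread of the libraries. Its level was 4852, 7113 and 6462 RPKM in control 1 to 3 and 6146, 8131 and 8089 RPKM in cKO 1 to 3. The groups overlapped, where 73.5% of tested precursors did not, with cKO 1 below both control 2 and control 3, and the lowest library of each genotype was the one numbered 1. The means were 6142 ± 1164 RPKM in control and 7455 ± 1134 RPKM in cKO (SD, n = 3 each). The limma fit, made on log2 values, gave a 1.22-fold difference with a 95% interval of 0.926-fold to 1.61-fold. On the log2(RPKM + 1) scale the difference was 0.29 (SE 0.18; limma, Benjamini-Hochberg adjusted p = 0.17), and mir-210 was not called. The interval holds both a small fall and a rise of more than 1.5-fold, so the lack of a call does not show equal levels. In whole retina, fewer cells of a type and less RNA per cell cannot be told apart.

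Most other precursors did pass the same test. Over the 461 precursors whose mean reached 10 RPKM, 71.1% were called, 69.4% as higher and 1.74% as lower in cKO (adjusted p below 0.05). The difference of the median precursor was 0.74 on the log2 scale. Of the 461, 396 had a larger log2 fold change than mir-210 and 64 a smaller one. By mean level mir-210 was number 100, and the precursors next above and next below it both rose as deposited. The next above, mir-100, averaged 4520 RPKM in control against 9168 RPKM in cKO and rose (log2 fold change 1.06, limma adjusted p = 0.0017). The next below, the imprinted mir-381, stood at 4357 and 8834 RPKM and rose too (log2 fold change 1.02, limma adjusted p = 5.4e-04). The injury-linked mir-21a, at a mean of 6901 RPKM beside 6799 RPKM for mir-210, did not pass (log2 fold change -0.14, limma adjusted p = 0.29).

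**Figure D1:**
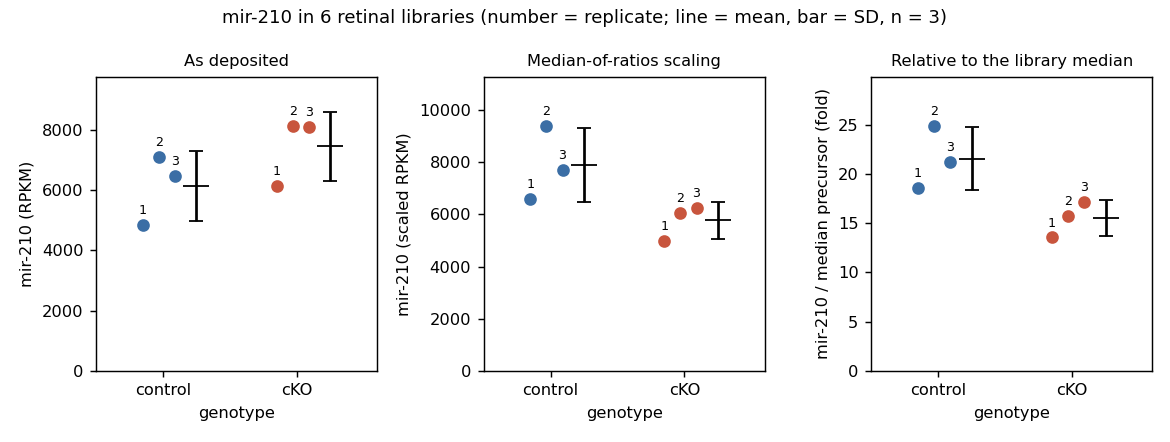
Level of mir-210 in the 6 libraries as deposited RPKM (left), after median-of-ratios scaling (middle) and as a multiple of the median precursor of the same library (right). Points are libraries with their replicate number, and the line and bar are the mean and SD (n = 3). The genotypes overlap on the left, where cKO is the higher, and do not overlap in the other panels, where the cKO libraries lie below the control libraries.

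Set against the other precursors of its own library, mir-210 was lower in each cKO library than in each control library. This comparison does not use the library total. In control 1 to 3 mir-210 stood 18.5-, 24.9- and 21.3-fold above the median of the 461 precursors, and in cKO 1 to 3 it stood 13.5-, 15.8- and 17.2-fold above it. The groups did not overlap, and the highest cKO library lay just under the lowest control library. On the log2 scale the distance to the median was 4.42 ± 0.21 in control and 3.95 ± 0.17 in cKO (SD, n = 3 each), a difference of -0.47. An exact permutation test (two-sided) returned p = 0.1, and no smaller p can be had from 3 libraries against 3. Groups that do not overlap on this measure were frequent, at 34.5% of the 461 precursors and 20.8% with cKO lower. By rank of RPKM, mir-210 was number 97, 87 and 90 in control 1 to 3 and number 107, 100 and 99 in cKO 1 to 3, so that it lost places in cKO. The ranks did not overlap between the genotypes for mir-210, nor for 29.7% of all 461 precursors.

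Scaling by the median of ratios, under which the typical precursor is level across libraries, turned the direction of mir-210. It stood at 6591, 9389 and 7710 scaled RPKM in control 1 to 3 and at 4975, 6068 and 6258 in cKO 1 to 3. All cKO libraries lay below all control libraries, and in 35.1% of the 461 precursors the groups were likewise apart, in either direction. The means were 7897 ± 1408 and 5767 ± 692 scaled RPKM (SD, n = 3 each). The log2 fold change was -0.45 (SE 0.16, 95% interval -0.80 to -0.092), and it did not pass either, at a limma adjusted p = 0.12 and an unadjusted p = 0.019. With this scaling 12.1% of precursors were called, 9.98% as lower and 2.17% as higher in cKO. Without control 1 it passed as lower, at -0.57 (limma adjusted p = 0.032), and without any other single library it did not (adjusted p = 0.17 to 0.26).

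**Figure D2:**
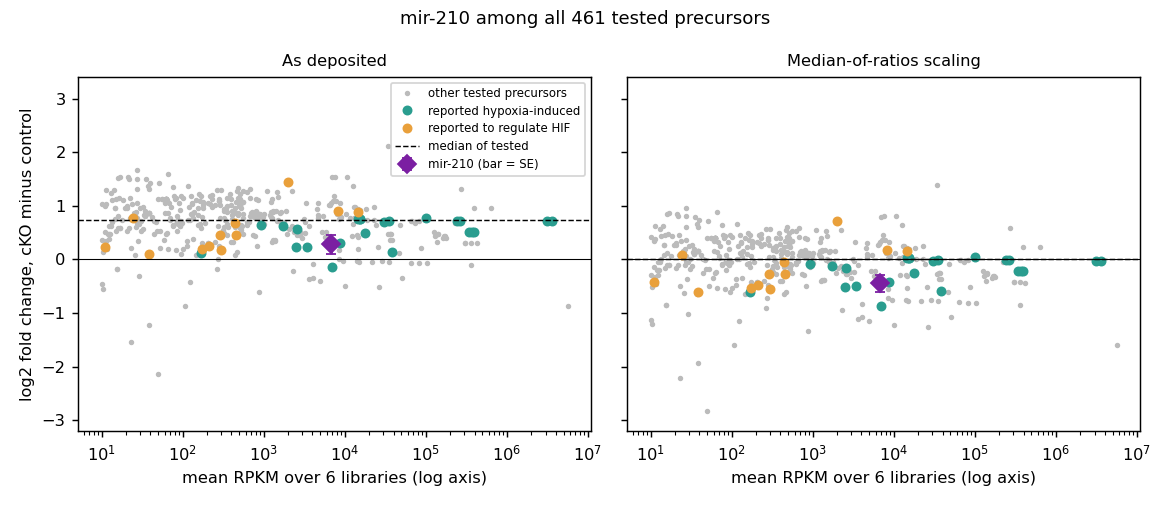
Log2 fold change of cKO minus control against mean RPKM (log axis) for the 461 tested precursors, as deposited (left) and after median-of-ratios scaling (right). The diamond is mir-210 with its SE, green and orange points are the oxygen-linked lists, and the dashed line is the median of all tested precursors. In both panels mir-210 lies below the dashed line, at 0.29 against 0.74 and at -0.45 against 0.018.

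Shares of the library depended on the total chosen in the same way. Of all library reads mir-210 took 0.0676% ± 0.0128 in control and 0.0820% ± 0.0125 in cKO (SD, n = 3 each), with p = 0.3 by exact two-sided permutation. Reads summed over precursors came to 1.52 times these totals in each control library and to 1.74 to 1.83 times in cKO. As a share of summed RPKM mir-210 took 0.0250%, 0.0364% and 0.0331% in control 1 to 3 and 0.0281%, 0.0356% and 0.0354% in cKO 1 to 3, a difference of 0.0015 percentage points (exact two-sided permutation p = 0.7). Once the reads at mir-182, the most abundant precursor and a miRNA of photoreceptors, were left out of the totals, the shares were 0.125%, 0.169% and 0.152% in control 1 to 3 and 0.102%, 0.126% and 0.123% in cKO 1 to 3. The groups then overlapped narrowly, with cKO 2 just above control 1, and the direction was the opposite one (exact two-sided permutation p = 0.2).

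Ratios within a library compared mir-210 with precursors known from particular cells. Of 8 ratios, 6 were lower and 2 higher in cKO, and in 4 the groups did not overlap. Exact two-sided permutation returned p = 0.1 for these 4, the smallest possible, and p = 0.2 after Benjamini-Hochberg adjustment over the 8, so none passed. All ratios below are of RPKM per precursor.

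Against mir-182 of photoreceptors mir-210 was relatively higher in cKO. The level of mir-182 was 1577, 1004 and 1097 times that of mir-210 in control 1 to 3 and 734, 475 and 457 times in cKO 1 to 3. The groups did not overlap, and the ratio of mir-210 to mir-182 was 2.22-fold higher in cKO (log2 difference 1.15). Nearly every precursor behaved so, as 94.6% of the 460 precursors other than mir-182 had a ratio to it that was higher in cKO without overlap.

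Against mir-126, mir-451a and mir-204, the references chosen for vessels, red cells and pigment epithelium, mir-210 was relatively lower in cKO. As deposited mir-126 and mir-451a had log2 fold changes of 1.37 and 1.10. Other markers of vessel walls (mir-143, mir-145a) and red cells (mir-144, mir-486) had smaller ones, from 0.64 to 0.77, and ratios to them were not taken. The ratio of mir-210 to mir-126, a miRNA of endothelial cells that supports vessel integrity, was 0.883, 1.03 and 0.722 in control 1 to 3 and 0.326, 0.471 and 0.453 in cKO 1 to 3. The 2 precursors were thus about equal in control, while mir-126 exceeded mir-210 in each cKO library (log2 difference of the ratio -1.08). The ratio to mir-451a of red cells, which matures without Dicer, was 34.1, 38.2 and 30.6 in control and 18.5, 21.8 and 18.3 in cKO (log2 difference -0.81). The ratio to mir-204 differed by -0.67 on the log2 scale, with mir-204 at 59.8 to 83.6 times mir-210 in control and 108 to 120 times in cKO. Whether the mir-204 reads came from pigment epithelium was not tested. For these 3 references 55.7%, 34.6% and 30.7% of the precursors other than the reference had ratios that were lower in cKO without overlap.

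Against the other 4 references, mir-181a-2, mir-9-2, mir-124-3 and mir-26a-2, the genotypes overlapped. Neuronal markers did not move alike. As deposited mir-124-3 had a log2 fold change of -0.071 and did not pass (limma adjusted p = 0.68). The neuronal mir-138-2 rose by 1.54 (limma adjusted p = 1.7e-04), and by 0.81 with median-of-ratios scaling (limma adjusted p = 0.0026). A ratio of mir-210 to mir-138-2 was not taken. The log2 difference of the ratio was -0.43 for mir-181a-2 and -0.43 for mir-9-2, which are miRNAs of the inner retina and of neural progenitors and Müller glia (exact two-sided permutation p = 0.2 and p = 0.3). It was -0.24 for mir-26a-2, a precursor found in many tissues (exact two-sided permutation p = 0.2). For the pan-neuronal mir-124-3 it was 0.36 (exact two-sided permutation p = 0.3). Leaving out control 1 moved the difference for mir-9-2 to -0.72, and leaving out control 2 or cKO 1 moved it to -0.27. For mir-124-3 it was 0.55 without cKO 1 and 0.23 without cKO 3. In control libraries mir-210 kept a close ratio to mir-124-3, which was 16.9 to 18.0 times higher, while in cKO the range was wider, at 11.3 to 17.8 times.

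**Figure D3:**
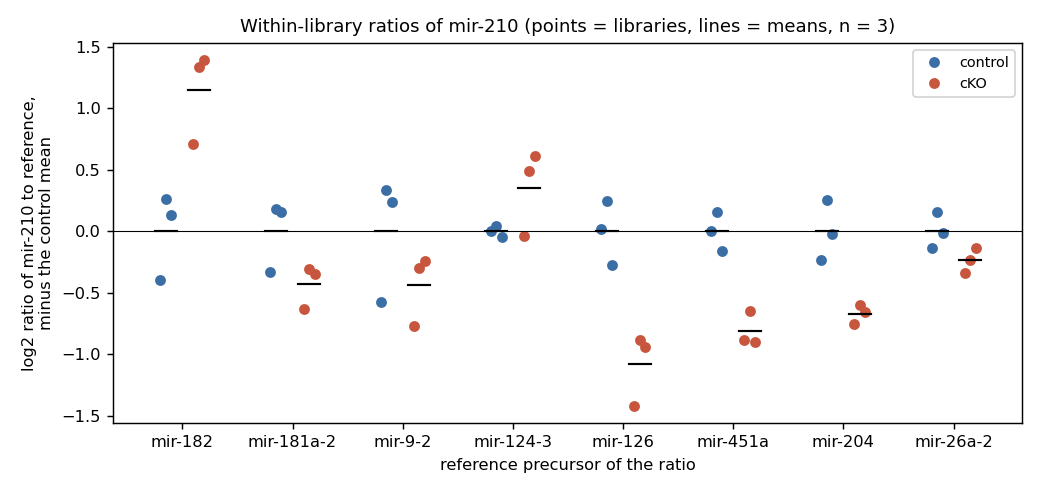
Log2 ratio of mir-210 to each of 8 reference precursors in the same library, minus the mean of the control libraries. Points are libraries and lines are means (n = 3). The cKO points lie above the control points for mir-182, below them for mir-126, mir-451a and mir-204, and overlap them for the other references.

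Other oxygen-linked miRNAs were compared as background to mir-210. A list of 24 precursors reported as raised by low oxygen in cultured cells had 23 in the table, and each of these was tested. As deposited 18 rose, 0 fell and 5 did not pass, beside 69.4% of all tested precursors that rose, and the median log2 fold change was 0.62 against 0.74 for all. With median-of-ratios scaling 0 rose and 5 fell, with a median of -0.11 against 0.018, beside 2.17% and 9.98% of all tested precursors. Near-identical copies share reads, so the counts are not of separate measurements.

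The most abundant of that list were the copies of mir-181a and mir-26a. The level of mir-181a-2 was 2744140 ± 109075 RPKM in control and 4495810 ± 181821 RPKM in cKO (SD, n = 3 each), a 1.64-fold rise (limma adjusted p = 2.4e-04), and its copy mir-181a-1 rose 1.64-fold. The copies mir-26a-2 and mir-26a-1 both rose 1.44-fold (limma adjusted p = 0.0036 each). With median-of-ratios scaling these precursors stood between -0.21 and -0.019 on the log2 scale and did not pass. Of the list, 5 precursors had a smaller log2 fold change than mir-210 as deposited, namely mir-21a at -0.14, mir-106a at 0.12, mir-27a at 0.14, mir-23a at 0.23 and mir-23b at 0.24. None of these 5 passed as deposited, and 4 of them, all but mir-106a, fell with median-of-ratios scaling. The precursor mir-192, next above mir-210 at 0.31, rose as deposited (limma adjusted p = 0.042) but on the median-of-ratios scale fell by 0.43 (limma adjusted p = 0.040). As deposited mir-192 lost its call when any library other than control 1 was left out (limma adjusted p = 0.056 to 0.15), while its log2 fold change stayed between 0.28 and 0.34. On the median-of-ratios scale it lost its call without control 2 or any cKO library (limma adjusted p = 0.093 to 0.19), at -0.45 to -0.37. There mir-23a and mir-23b lost their calls without control 3 or any cKO library (limma adjusted p = 0.060 to 0.10), at -0.52 to -0.47.

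A second list held 12 precursors of miRNAs reported to act on HIF or its regulators. As deposited 6 rose, 0 fell and 6 did not pass, beside 69.4% of all tested precursors that rose, and the median log2 fold change was 0.45 against 0.74 for all. With median-of-ratios scaling 0 rose and 1 fell, beside 2.17% and 9.98% of all. The precursor that fell was mir-17 at -0.56 (limma adjusted p = 0.040), a call that was lost without any one of the 6 libraries (adjusted p = 0.059 to 0.13), at -0.63 to -0.43. The most abundant were mir-130a and mir-130b, which rose 1.85- and 1.88-fold as deposited (limma adjusted p = 9.0e-04 each) and stood at 0.16 and 0.18 on the log2 scale after scaling, where they did not pass. The precursor mir-31, of a miRNA that acts on the HIF inhibitor FIH, averaged 1329 ± 1045 RPKM in control against 2621 ± 1035 RPKM in cKO (SD, n = 3 each) and did not pass (limma adjusted p = 0.091), at a log2 fold change of 1.45. Without control 3 it rose by 2.12 (limma adjusted p = 0.023), while without control 2 it stood at 0.41 (adjusted p = 0.31), and at -0.30 with median-of-ratios scaling too. It also belongs to the lens and epithelium markers, whose levels varied widely above. The precursor mir-199a-1 rose 1.37-fold as deposited (limma adjusted p = 0.036) and stood at -0.27 after scaling, where it did not pass. Its call was lost when any library other than control 3 was left out (limma adjusted p = 0.051 to 0.11), at 0.37 to 0.50.

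**Figure D4:**
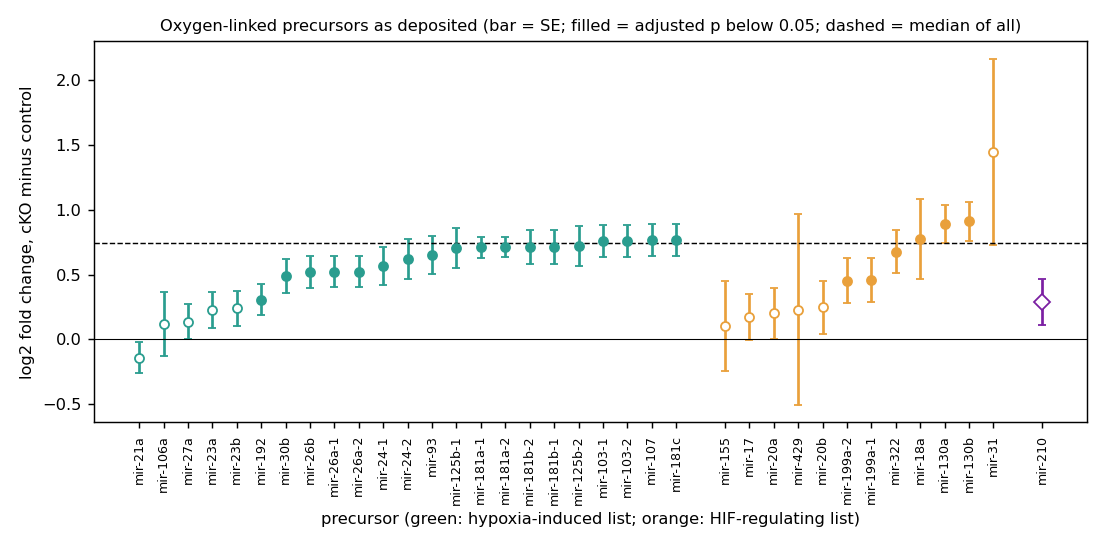
Log2 fold change of cKO minus control, as deposited, for the precursors reported as induced by hypoxia (green), those reported to regulate HIF (orange) and mir-210 (diamond). Bars are SE, filled symbols passed at an adjusted p below 0.05, and the dashed line is the median of all tested precursors at 0.74. The diamond lies at 0.29, open and below the line.

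The precursors whose levels most resembled mir-210 across the 6 libraries were sought among 305 others with a mean of at least 100 RPKM. On the log2(RPKM + 1) scale as deposited the highest Pearson correlations were those of mir-101a (r = 0.994), mir-29c (0.984), mir-29a (0.982), mir-29b-1 (0.982) and mir-29b-2 (0.982), while the median over the 305 was 0.614. The points of each correlation share the 6 libraries and their totals. The level of mir-101a was 19751, 26300 and 24351 RPKM in control 1 to 3 and 23812, 28425 and 29783 RPKM in cKO 1 to 3. As with mir-210, the library numbered 1 was the lowest of each genotype, and cKO 1 lay below control 2 and control 3. As deposited mir-101a did not pass, at a log2 fold change of 0.22 (limma adjusted p = 0.19), but it fell by 0.51 on the median-of-ratios scale (limma adjusted p = 0.032), a call that was lost when any library other than control 1 was left out (adjusted p = 0.064 to 0.11), at -0.57 to -0.40.

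After the median of each library was subtracted, the closest precursors were mir-26b (r = 0.985), mir-26a-2 (0.984), mir-26a-1 (0.984), mir-532 (0.982) and mir-101b (0.976), with a median of 0.0912 over the 305. On this scale markers of 1 cell class could lie far apart, as the neuronal mir-124-3 had a correlation of 0.811 with mir-210 and the neuronal mir-138-2 one of -0.843. The photoreceptor precursors mir-182, mir-183 and mir-96 had 0.736, 0.776 and 0.771. The endothelial mir-126 had -0.714, while mir-143 and mir-145a of vessel walls had 0.515 and 0.169. Among leukocyte markers mir-142 had -0.828 and mir-150 -0.127. With 6 libraries in 2 genotypes, such values mix the difference between genotypes with the spread within them.

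Mature sequences of some of these miRNAs are shown to set their seeds beside that of miR-210-3p. The seed is in capitals. The miRNAs are a pair of abundant hypoxia-list members, a HIF-list member and some of those whose levels ran closest to mir-210. Among the closest, those of mir-29b-1, mir-29b-2, mir-26b, mir-532 and mir-101b are not shown.
miR-210-3p: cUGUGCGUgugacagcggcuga
miR-181a-5p: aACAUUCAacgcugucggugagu
miR-26a-5p: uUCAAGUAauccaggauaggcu
miR-130a-3p: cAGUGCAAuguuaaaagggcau
miR-101a-3p: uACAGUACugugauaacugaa
miR-29a-3p: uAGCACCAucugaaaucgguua
miR-29c-3p: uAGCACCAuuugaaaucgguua
The seed is shared by miR-29a-3p and miR-29c-3p and by no other pair of the sequences shown.

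**Figure D5:**
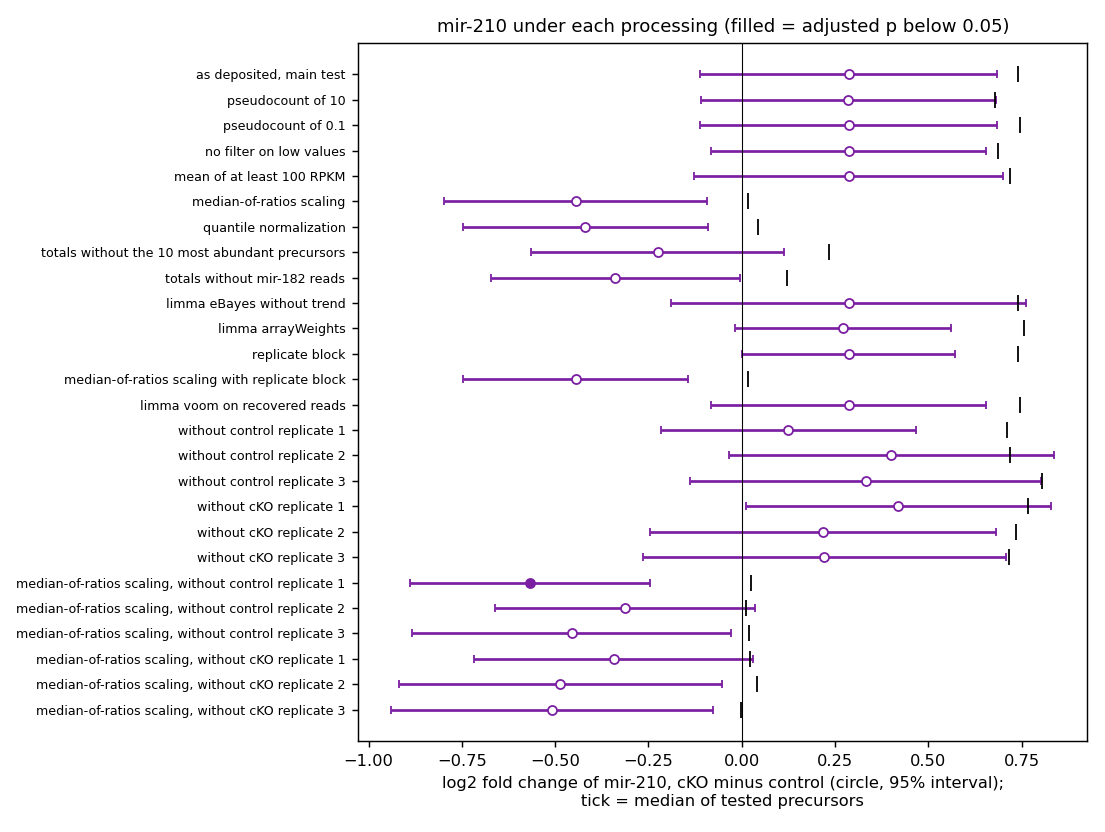
Log2 fold change of mir-210, cKO minus control, with its 95% interval under each processing of the values. The tick is the median of all tested precursors under the same processing, and a filled circle has an adjusted p below 0.05. In each row shown the circle lies to the left of the tick, to the right of 0 with the deposited totals and to the left of 0 under the other scalings.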

How the data were processed

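Small RNA libraries of 3 control and 3 cKO pools of 6 retinas were compared. Per the labels' protocols, each was made from 1 µg of total RNA, amplified by 11 PCR rounds, size-selected and sequenced in a shared 50-base run. The labels call the samples replicates, and the mice behind each pool are not named, so p values measure only the spread between these libraries. The authors deposited RPKM values per precursor. Per the submitters' processing notes, Bowtie and mm9 were used, with version, annotation and treatment of reads with several matches not given in the sources used here. RPKM times RefSeq precursor length gave whole reads for 100.0% of 4884 values (814 precursors, tolerance 0.01 reads), and with them the library totals.

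The test was limma 3.58.1 (R 4.3.3, trend, two-sided) on log2(RPKM + 1) over 461 precursors whose mean reached 10 RPKM, and p values were adjusted by Benjamini-Hochberg over all 461 at a threshold of 0.05. Fold changes on this scale understate changes of low precursors. Single values were tested by exact permutation of libraries (scipy 1.17.1). The fit was also run on simulated data with rises and falls in equal number and mir-182 unchanged, so that run does not bear on the choice of scaling. Sequences are from RefSeq (GRCm38.p6), and no coordinates of the deposited values were used. Named precursors are mir-210, 8 references, the 4 most abundant of each oxygen list, the 5 closest in pattern on each of 2 scales, and the neighbours in level. Those with values below mir-210 in the hypoxia list, mir-21a, mir-192, mir-17, mir-138-2 and the correlations of marker precursors were added after their values were seen. The precursor, lists, references and alternatives were chosen with earlier results of these data known. The lists are from general knowledge, and mir-195 had no entry under that name in the values.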

Additional observations from a re-analysis of the deposited data

How the results depend on the processing

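The direction of mir-210 depended on the scaling. Its log2 fold change was 0.29 as deposited, -0.45 with median-of-ratios scaling, -0.42 with quantile normalization, -0.23 with totals without the 10 most abundant precursors and -0.34 with totals without mir-182 reads (limma adjusted p = 0.12 to 0.30 for these 4). The numbers that rose and fell were 320 and 8 as deposited, then 10 and 46, 12 and 29, 57 and 29, and 20 and 36 in the same order. With array weights 14 fell, and with a minimum mean of 100 RPKM 4 fell. The share of mir-210 differed by 0.0144 percentage points as deposited and by -0.0315 without mir-182 reads. With the deposited totals mir-210 passed under none of 14 alternatives of pseudocount, filter, variance, weights, voom, block and left-out libraries (limma adjusted p = 0.064 to 0.47).

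Without 1 library each, the log2 fold change ran from 0.13 without control 1 to 0.42 without cKO 1, the number that rose from 252 to 322 and that of falls from 4 to 12. The difference in share ran from 0.0073 percentage points without control 1 to 0.0216 without cKO 1. The distance to the library median differed by -0.58 to -0.36. With median-of-ratios scaling, chosen after seeing the data for these fits, leaving out control 1, 2 or 3 gave -0.57, -0.31 or -0.46, and leaving out cKO 1, 2 or 3 gave -0.34, -0.49 or -0.51. None of the 8 ratios changed direction without a library or with a pseudocount of 10.

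With a replicate block the log2 fold change stayed at 0.29 (limma adjusted p = 0.065), with 338 that rose and 10 that fell. With block and median-of-ratios scaling together, added after seeing the data, it was -0.45 (limma adjusted p = 0.056). Deviations of same-numbered libraries correlated at 0.19, 0.26 and 0.0093, and those of differently numbered libraries at -0.22 to 0.048. Control 3 correlated at 0.015 with cKO 1, little above its 0.0093 with cKO 3. The main fit does not pair libraries by number, and whether the numbers mark pairs was not tested. With 3 libraries a group, no exact permutation test can fall below p = 0.1.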
